A study of Homo sapiens with 28 samples.

Results

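Of the 19968 promoters of protein-coding genes on chromosomes 1 to 22 and X, 6341 (31.8%) were overlapped by a TWIST1 ChIP-seq peak in the human colorectal cancer (CRC) cell line MDST8 and by no peak in the CRC cell line LoVo. A promoter was taken as the 1000 bp to either side of the gene's annotated 5′ end. Peaks of both lines lay in 3013 promoters (15.1%), peaks of LoVo alone in 3103 (15.5%), and no peak of either list in 7511 (37.6%). The members were chosen by the position of listed peaks in both lines, so the peak values of these 6341 promoters are given as a description without a test. The expression values were not used to choose them.

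MDST8 is a line of the mesenchymal CMS4 subtype, and LoVo is a line of the CMS2 subtype, which the study used as non-CMS4. RNA-seq covered MDST8 wild type (WT) cells, 5 TWIST1 knockout clones (1.1, 2.2, 3.2, 3.5 and 3.6), and LoVo cells labelled TWIST1 shRNA or shRNA control, with 3 libraries in each of the 8 groups. Each knockout group is taken as a single clone, grown from 1 cell after CRISPR-Cas9 editing of TWIST1. The sample titles name clones 3.2, 3.5 and 3.6 all as clone TG3, and clones 1.1 and 2.2 as TG1 and TG2. If TG stands for the guide RNA, which the labels do not say, the TG3 clones share any effect of their guide. The LoVo groups are labelled by their short hairpin RNA, whereas MDST8 WT had none. A caption of the study calls the LoVo comparator wild type, so whether the labelled control carried a hairpin is uncertain. ChIP-seq used an antibody to TWIST1 in the unedited lines, with 1 library per line, so the peaks have no replicate error. Nothing in the labels says that the 3 libraries of a group came from separate cultures, and p-values then measure only the spread between libraries, which may be technical.

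TWIST1 is a basic helix-loop-helix transcription factor that pairs with E proteins such as TCF3 and TCF4 and binds short sites of the form CANNTG, called E-boxes. In carcinoma cells it is known for the epithelial to mesenchymal transition, in which junction genes are lost and matrix and motility genes are gained. A ChIP-seq peak marks DNA recovered above the local background with the antibody, and it does not show by itself that the nearest gene responds.

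The sequences under the peak summits show where the MDST8 list places its peaks at individual promoters. The 101 bases centred on the summit are printed for 9 members, which had the strongest promoter peaks or moved in the same direction in all 5 clones, and where no annotated exon was touched. Each is written 5′ to 3′ on the strand of its gene from the hg38 genome, in lower case with every CANNTG in capitals. The summits of CHRNA1 and AP5S1 lay upstream of the gene, and those of the other genes lay in an intron.
CHRNA1, chr2:174787980-174788080, minus strand: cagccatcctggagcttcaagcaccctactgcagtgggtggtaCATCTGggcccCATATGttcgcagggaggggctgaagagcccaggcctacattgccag
AP5S1, chr20:3819944-3820044, plus strand: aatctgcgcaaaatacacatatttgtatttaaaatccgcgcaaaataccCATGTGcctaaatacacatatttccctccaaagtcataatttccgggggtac
COLEC12, chr18:499965-500065, minus strand: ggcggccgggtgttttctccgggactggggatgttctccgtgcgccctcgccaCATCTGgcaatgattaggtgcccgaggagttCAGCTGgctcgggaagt
PLEKHG1, chr6:150601141-150601241, plus strand: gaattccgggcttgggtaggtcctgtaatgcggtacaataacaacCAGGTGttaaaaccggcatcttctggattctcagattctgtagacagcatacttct
BMF, chr15:40107712-40107812, minus strand: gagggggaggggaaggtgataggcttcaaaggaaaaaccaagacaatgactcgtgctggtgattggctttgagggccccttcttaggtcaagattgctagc
DAAM2, chr6:39793171-39793271, plus strand: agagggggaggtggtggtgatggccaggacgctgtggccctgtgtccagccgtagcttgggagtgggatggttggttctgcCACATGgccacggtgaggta
CACNA2D1, chr7:82443257-82443357, minus strand: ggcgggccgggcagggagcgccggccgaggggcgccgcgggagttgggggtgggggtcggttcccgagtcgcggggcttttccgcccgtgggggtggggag
SERPINB2, chr18:63872560-63872660, plus strand: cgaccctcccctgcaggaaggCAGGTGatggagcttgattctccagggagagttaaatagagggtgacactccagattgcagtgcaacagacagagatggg
KRT34, chr17:41381278-41381378, minus strand: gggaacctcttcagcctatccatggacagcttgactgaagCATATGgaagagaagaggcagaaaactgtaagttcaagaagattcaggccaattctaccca

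The word CATCTG was present under the summits of CHRNA1 and COLEC12. CHRNA1 also held CATATG, and CAGCTG was a further word of COLEC12. The summits of PLEKHG1 and SERPINB2 held CAGGTG, while BMF and CACNA2D1 held no CANNTG in these 101 bases. A match is a description of the letters and not a measured binding site. Of the printed genes, only CHRNA1, AP5S1 and COLEC12 had a MACS2 q-value of at most 0.05 for the peak. The q-value corrects for the number of sites, and for the other printed genes it was 0.274 (BMF) or higher.

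Over all members, 36.2% of the summit windows held a CANNTG, 5.52% held CATCTG and 5.65% held CAGCTG, on either strand; both of these words are also CANNTG words. The same windows around all 338802 MDST8 peaks on these chromosomes held CANNTG in 45.1%, CATCTG in 7.46% and CAGCTG in 5.04%. The member summits were richer in G and C, with a median GC content of 56.4% against 46.5% for all MDST8 peaks. In promoters with peaks of both lines, the windows around the MDST8 summit held CANNTG in 36.4% and CATCTG in 5.44%, close to the members. The summit windows of the members thus held CANNTG and CATCTG less often than the average MDST8 peak, and CAGCTG slightly more often. No test was made of these shares.

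Across the whole 2000 bp of promoter, the members had a median GC content of 56.1% (quartiles 51.0 and 61.3) against 55.0% for all promoters and 53.9% for promoters with LoVo peaks alone. The ratio of observed to expected CpG reached 0.6, a usual mark of CpG islands, in 60.0% of the members, in 61.0% of promoters with peaks of both lines, in 48.6% of those with LoVo peaks alone and in 43.4% of those with neither. CANNTG was found in 99.9% of the members and in 99.9% of all promoters. CATCTG was found in 64.6% of the members and 65.4% of all promoters. The members therefore resembled the promoters with peaks of both lines in base composition, and they did not hold CATCTG more often than all promoters. Another gene began in the opposite direction near the 5′ end in 9.78% of the members and in 8.57% of all promoters. Chromosome X held few members, 120 of 859 promoters (14%), whereas the shares on the other chromosomes ran from 26.3% on chromosome 6 to 36.7% on chromosome 22.

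The peaks that chose the members were weak. The strongest promoter peak of each member had a median fold enrichment of 2.46 (quartiles 2.19 and 2.80) and a median p-value of 0.00286. The p-value was at most 0.001 in 1820 members (28.7%), and the q-value, which corrects for the number of sites, was at most 0.05 in 37 (0.584%). Fold enrichment and p-value took few distinct values: the 6341 members shared 924 pairs, and 443 members had a fold enrichment of 2.29 with a p-value of 0.00739. Promoters with peaks of both lines had MDST8 peaks of the same median fold enrichment, 2.46, and 29.1% of them had a p-value of at most 0.001. The members and the shared promoters thus had the same median peak height.

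Within the promoter the summits spread widely, as the plot of summit positions shows. Only 24.2% lay within 250 bp of the 5′ end and 48.1% lay upstream of it, and 1556 peaks (24.5%) covered the 5′ end itself. MDST8 peaks of promoters shared by both lines covered it in 23.6%, while LoVo peaks covered it in 11.5% of the shared promoters and in 14.5% of promoters with LoVo peaks alone. One peak lay in 5087 members, 2 peaks in 1172 and 3 in 82. As neighbouring genes can share a peak, the members had 5719 distinct strongest peaks, and 1209 members shared theirs with another member.

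**Figure D1:**
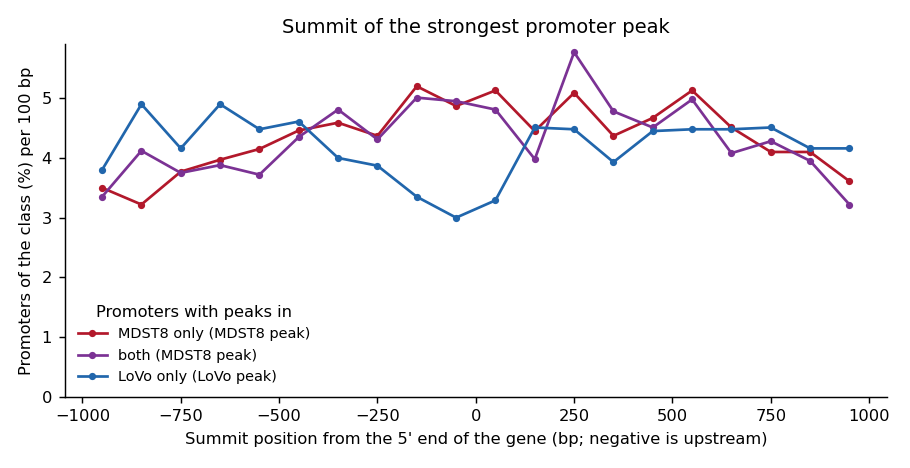
Position of the summit of the strongest promoter peak relative to the 5′ end of the gene (x axis, bp, negative upstream) against the percentage of promoters of each class per 100 bp (y axis), for the members (MDST8 only), promoters with peaks of both lines (MDST8 peak) and promoters with LoVo peaks alone (LoVo peak). The members' line runs between 3.22% and 5.2% per 100 bp, whereas the line of promoters with LoVo peaks alone dips to 3.0% just upstream of the 5′ end.

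Absence of a LoVo peak depended on the width of the promoter. In 2420 members (38.2%) a LoVo peak lay more than 1000 and up to 3000 bp from the 5′ end, in 3921 none lay within 3000 bp, and the median distance to the nearest LoVo peak was 4065 bp. At the edge of the rule, the MDST8 peaks of DDX42 and H3-3B lay 1000 bp from the 5′ end (fold enrichment 2.21 and 3.07) and that of CENPS-CORT 999 bp (2.67), while those of ACP7, ART3 and ELOVL3 lay 1001 bp away (3.00, 2.74 and 2.42) and were left out. BRAP, C1orf122 and GPRC5A were members with a LoVo peak at 1001 bp (2.46, 2.64 and 2.06), whereas CCT5 and CMTM3, with one at 998 bp (1.85 and 2.11), and MXRA8, with one at 997 bp (1.81), were not. Membership thus turned on 1 to 4 bp for these genes.

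TWIST1 was itself a member, with its stronger promoter peak at chr7:19116411-19116870 inside the gene. It was measured at 44.7, 52.2 and 40.2 CPM (counts scaled to library size) in MDST8 WT, a mean of 45.7 ± 6.08 (SD, n = 3), and at clone means of 37.1, 29.3, 53.3, 40.4 and 44.6 CPM in clones 1.1, 2.2, 3.2, 3.5 and 3.6. Under the calling rule, an absolute log2 fold change above 0.58 with a Benjamini-Hochberg adjusted p below 0.05 in edgeR's quasi-likelihood test, it was called only in clone 2.2 (log2 fold change -0.65 ± 0.07 SE, adjusted p = 2.37e-09). CRISPR editing changes sequence and need not lower the mRNA level, so these counts do not check the knockouts. In LoVo the counts ran against the labels: the libraries labelled shRNA control held 0, 0 and 0 counts, and the libraries labelled TWIST1 shRNA held 3.8, 5.19 and 5.18 CPM. Every LoVo direction given here is therefore as labelled. The LoVo peak list held 333621 peaks and the MDST8 list 338877. Whether the LoVo peaks mark TWIST1 binding was not tested, which limits the rule that chose the members. The study examined the LoVo knockdown by western blot and also at the level of TWIST1 mRNA by qRT-PCR, neither of which was analysed here.

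The other facts of the series that touch the members concern depth and cell identity. Total counts ran from 17252883 to 22217009 in the 18 MDST8 libraries and from 16567606 to 20889529 in the 6 LoVo libraries. Of 8 colon epithelial markers, 2 reached 1 CPM in MDST8 WT (summed level 72.4 CPM) and 8 in either LoVo group (8840 and 4980 CPM as labelled control and TWIST1 shRNA), and CDH1 was at 0 in MDST8 WT. Of 8 mesenchymal markers, 8 reached 1 CPM in MDST8 WT (12100 CPM) against 5 and 7 in LoVo (218 and 418 CPM). Of 5 leukocyte and endothelial markers, 0 reached 1 CPM in any group. EPCAM, CDH17, VIM, SPARC, TWIST1, PTPRC and CD68 are both markers and members.

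Genes with an MDST8-only promoter peak were expressed in both lines. Their median level in MDST8 WT was 2.66 CPM per kb of exon (quartiles 0.0555 and 10.5), in the LoVo libraries labelled shRNA control 2.72, and in those labelled TWIST1 shRNA 2.71, all of the 6341 members counted. Clone medians ran from 2.71 to 2.78. The medians of promoters with peaks of both lines were 3.10, 3.35 and 3.12 CPM per kb, of promoters with LoVo peaks alone 0.614, 1.16 and 0.997, and of promoters with neither 0.167, 0.321 and 0.380, in the same order of groups. The members were thus nearly as high as the shared promoters and higher than the remainder, in LoVo as in MDST8.

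At least 1 CPM was reached by 4324 members (68.2%) in MDST8 WT, 68.1% in LoVo labelled shRNA control and 70.3% in LoVo labelled TWIST1 shRNA, against 59.1% of all promoters in MDST8 WT. In WT and both LoVo groups alike, 3906 members (61.6%) reached it, and 1514 (23.9%) reached it in none of the 3. Expression in MDST8 WT and in no LoVo group was found for 232 members (3.66%, against 3.57% of all promoters), and the opposite, both LoVo groups and not WT, for 277 (4.37%, against 5.35%). Members with stronger peaks were at higher levels in either line: with the members split at the quartiles of peak p-value, from weakest to strongest, the WT medians were 1.61, 2.17, 2.42 and 4.58 CPM per kb, and the medians in LoVo labelled shRNA control were 1.95, 2.48, 2.55 and 4.28. Across the members, peak strength and WT level had a Spearman correlation of 0.138 (n = 6341), a description over genes that share 1 ChIP library and are not independent.

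**Figure D2:**
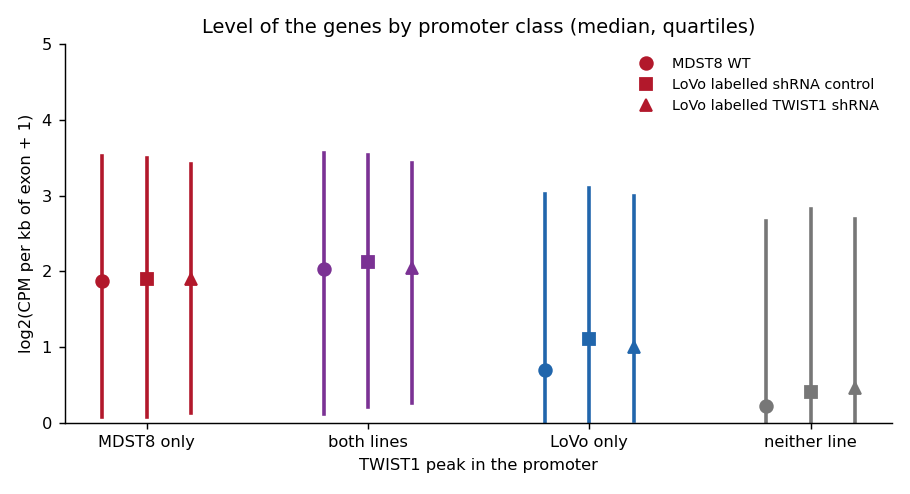
Expression level of the genes by promoter class (x axis) as log2(CPM per kb of exon + 1) (y axis), with the median as a symbol and the quartiles as a line, for MDST8 WT (circles) and for LoVo labelled shRNA control (squares) and TWIST1 shRNA (triangles). The 3 medians of the MDST8-only promoters, 2.66, 2.72 and 2.71 CPM per kb, are nearly level.

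The study asked which genes respond to loss of TWIST1, by setting knockout clones against WT. Of the 6341 members, 4360 passed the filter on low counts in MDST8, and 2803 of these (64.3%) were called in no clone, which does not exclude smaller changes, 622 in 1, 300 in 2, 250 in 3, 230 in 4 and 155 in all 5, the last in either direction. In clone 1.1, 740 members were called (434 up, 306 down), 17% of those tested, against 19.5% of all genes and 18.6% of all protein-coding genes tested. In clone 2.2, 543 were called (269 up, 274 down), 12.5% against 14.7% of all genes. Over all genes tested 12% and 8.05% were called up and 7.49% and 6.64% down in clones 1.1 and 2.2. The share of the members was below that of all genes in both of these clones.

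In clone 3.2, 630 members were called (403 up, 227 down), 14.4% against 17% of all genes. In clone 3.5, 684 were called (391 up, 293 down), 15.7% against 18.5%. Clone 3.6 had the most, 1070 (593 up, 477 down), 24.5% against 27.0%. In these 3 clones 10.9, 11.2 and 15.3% of all genes tested were called up and 6.09, 7.25 and 11.7% down. Up in all 5 clones were 106 members (2.43% of those tested, against 3.17% of all genes), and down in all 5 were 36 (0.826% against 1.06%). The 5 comparisons share the 3 WT libraries, so a deviation in WT enters all of them. In promoters with peaks of both lines 17.5, 12.6, 15.1, 16.3 and 25.6% were called in the same clone order, and in promoters with neither 21.3, 15.8, 18.4, 19.1 and 27.7%. The split of the members' calls depended on library scaling in 3 clones. Up calls made up 64.0, 57.2 and 55.4% in clones 3.2, 3.5 and 3.6. They made up 74.2, 46.9 and 71.7% when log2(count + 1) was compared without library size normalization. That setting also put the median log2 fold change of all genes at 0.06, -0.06 and 0.13.

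**Figure D3:**
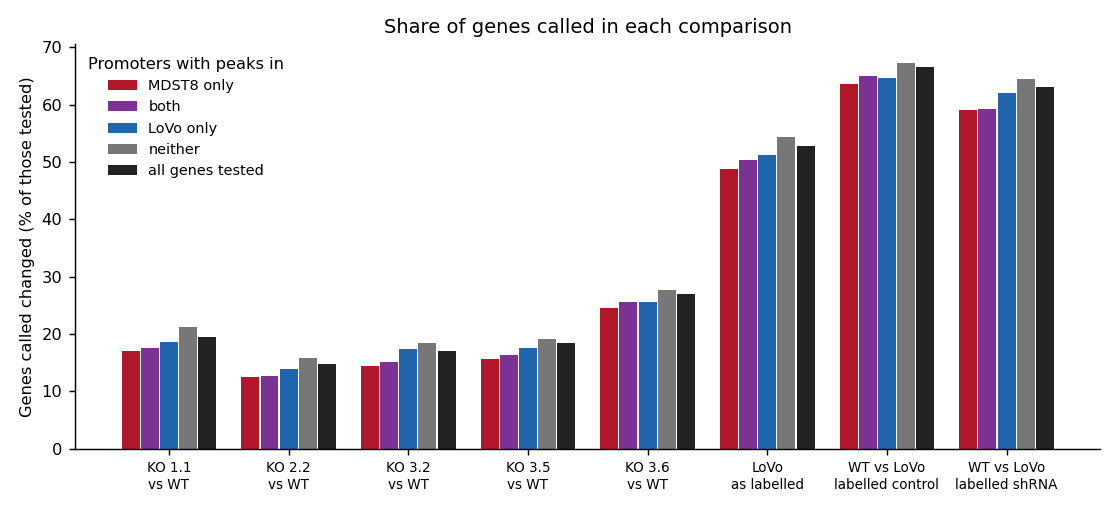
Percentage of tested genes called (y axis, absolute log2 fold change above 0.58 and adjusted p below 0.05 by edgeR) in each comparison (x axis), by promoter class, with all genes tested in black. In each of the 8 comparisons the MDST8-only bar is below the bar of all genes, for example 17% against 19.5% in clone 1.1.

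Ranked by their smallest log2 fold change over the 5 clones, the 8 leading members called up in all of them were SERPINI1, ATP6V0D2, DACH1, PLEKHG1, SHC4, BMF, DAAM2 and CACNA2D1. For each of them all 15 clone libraries lay above the 3 WT libraries, which ranking by the change in these clones favours in advance. The share of all genes separated in this way is not given. ATP6V0D2, a subunit of the vacuolar proton pump, was at 0.265, 0.152 and 0.353 CPM in WT and from 2.21 to 7.77 CPM in the clone libraries, with log2 fold changes of 3.23 ± 0.31 (SE, clone 2.2) to 4.80 ± 0.26 (clone 3.6). SERPINI1, which encodes the protease inhibitor neuroserpin, was at 1.27, 0.758 and 0.504 CPM in WT, and rose by 2.04 ± 0.29 (clone 3.5) to 3.65 ± 0.24 (clone 3.6). ATP6V0D2, SERPINI1 and DAAM2 averaged under 1 CPM in WT and passed the filter only through clone libraries. A higher level in some clones was thus a condition of their being tested, and their fold changes rest on few WT counts. SERPINI1 shares its peak, chr3:167735904-167736599, with PDCD10, which starts nearby in the opposite direction. PDCD10 had log2 fold changes of -0.14 to 0.16 and was called in no clone.

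DACH1, a transcription factor of the dachshund family, was at 4.44, 6.16 and 4.99 CPM in WT, and its clone means were 36.6, 23.5, 17.7, 26.6 and 19.5 CPM. Its log2 fold changes ran from 1.76 ± 0.10 (clone 3.2) to 2.80 ± 0.09 (clone 1.1, adjusted p = 8.08e-24 by edgeR). BMF, a BH3-only protein that promotes apoptosis, was at 9.58, 8.39 and 8.17 CPM in WT and rose by 1.56 ± 0.09 (clone 2.2) to 2.65 ± 0.08 (clone 3.6). Both genes were several times higher in every clone library than in WT. PLEKHG1, a guanine nucleotide exchange factor, rose from 6.39 ± 0.846 CPM (SD, n = 3) in WT to clone means of 19.4 to 29.5 CPM. DAAM2, a formin of the Wnt pathway, rose from 0.954 ± 0.274 CPM to clone means of 2.80 to 9.64 CPM.

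SHC4, a signalling adaptor, rose by 1.59 to 2.46 on the log2 scale, and CACNA2D1, a subunit of voltage-gated calcium channels, by 1.42 to 1.83. Among these 8 genes the peak p-value ran from 4.43e-08 for SERPINI1 to 0.0326 for DAAM2. The summits lay 530 to 1308 bp inside the gene for all 8, DACH1 nearest and PLEKHG1 farthest.

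By the same ranking, the 8 leading members called down in all 5 clones were SERPINB2, KRT34, TNFAIP2, CBLN2, PRR9, CENPV, KRTAP2-3 and BMP2. For each all 15 clone libraries lay below the 3 WT libraries, which the ranking again favours in advance. SERPINB2, the plasminogen activator inhibitor PAI-2, was at 219, 209 and 230 CPM in WT and from 20.9 to 70.1 CPM in the clone libraries. Its log2 fold changes were -1.70 ± 0.06 (clone 2.2) to -3.33 ± 0.07 (clone 3.2, adjusted p = 1.06e-28 by edgeR). BMP2, a secreted ligand of the TGF-beta family, was at 72.5, 70.8 and 64.6 CPM in WT and fell in every clone, to means of 22.4, 29.5, 19.5, 33.1 and 19.3 CPM. Clone 2.2 was the least changed for SERPINB2, whereas for BMP2 it was clone 3.5, at -1.07 ± 0.06.

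TNFAIP2, a gene induced by tumour necrosis factor, was at 10.6, 10.4 and 8.58 CPM in WT, with log2 fold changes from -1.57 ± 0.19 (clone 2.2) to -5.00 ± 0.28 (clone 1.1). CBLN2, a secreted organizer of synapses, was at 10.1, 9.90 and 9.03 CPM in WT and fell to clone means of 0.473 to 3.72 CPM. CENPV, a centromere protein, fell from 16 ± 0.765 CPM to clone means of 2.47 to 7.23 CPM. In these 3 genes the least changed clone differed: clone 2.2 for TNFAIP2 and CENPV, and clone 3.2 for CBLN2. The keratin gene KRT34, the keratin-associated gene KRTAP2-3 and PRR9 fell by at least 1.59, 1.13 and 1.33 on the log2 scale in each clone. KRT34 and KRTAP2-3 belong to families of near-identical copies, between which counting may split reads, so their values are uncertain. SPP1, the matrix protein osteopontin, was singled out after its values were seen, and was at 46.3, 44.9 and 43.2 CPM in WT and at clone means of 13.4 to 26.0 CPM, called down in all 5 clones.

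**Figure D4:**
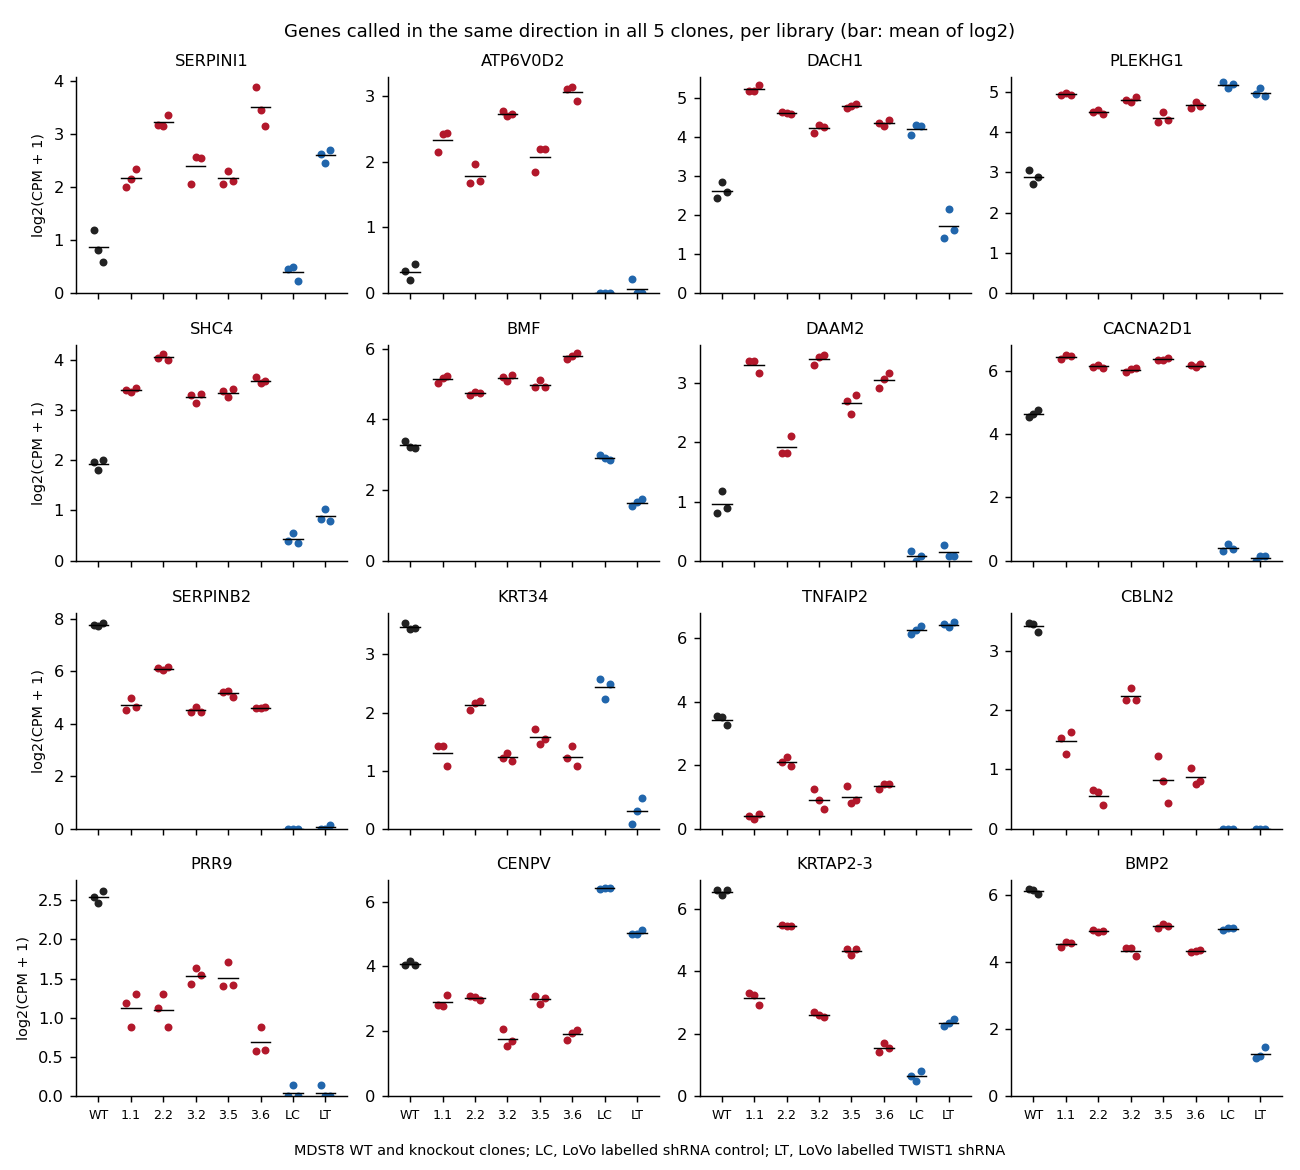
Level in each library as log2(CPM + 1) (y axis, 1 point per library, bar at the mean of the log2 values) for 16 members called in the same direction in all 5 clones, in MDST8 WT (black), the 5 knockout clones (red) and LoVo (blue; LC labelled shRNA control, LT labelled TWIST1 shRNA). For SERPINI1 to CACNA2D1 all 15 red points lie above the black points, and for SERPINB2 to BMP2 all lie below. Choosing the genes by their change in these clones favours this separation in advance.

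Of the 10 members with the strongest promoter peaks, by p-value, 8 are described. The smallest p-value of any member, 6.08e-10 with a fold enrichment of 5.27 (q = 5.81e-05), belonged to CHRNA1, a subunit of the muscle acetylcholine receptor, with a peak at chr2:174787592-174788420. CHRNA1 was low in WT, at 0.635, 1.11 and 0.908 CPM, and was called up in all 5 clones by 0.82 ± 0.29 (clone 1.1, adjusted p = 0.0142 by edgeR) to 2.66 ± 0.24 (clone 3.6). LoVo libraries of either label held 0 CHRNA1 counts. The next peak, chr12:55973948-55974462 (MACS2 p-value of 5.21e-09, fold enrichment 5.31), lay just inside RAB5B, a small GTPase of early endosomes, and upstream of PMEL, a melanosome protein that starts in the opposite direction. PMEL was called up in clones 3.2 and 3.5 (1.16 ± 0.30 and 1.15 ± 0.30), and RAB5B, at 174, 168 and 172 CPM in WT, was called in none, with log2 fold changes of 0.04 to 0.34. CHRNA1 and PMEL averaged under 1 CPM in WT and passed the filter only through clone libraries. A higher level in some clones was thus a condition of their being tested.

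Of the other strongest peaks, that of AP5S1, a subunit of an adaptor complex for endosomal sorting (peak p-value of 1.99e-08), stood beside WT levels of 30.9, 34.0 and 35.2 CPM and clone means of 28.1 to 32.8 CPM, called in no clone. ICAM5, an adhesion molecule (peak p-value of 5.54e-08), was also called in no clone, with log2 fold changes of -0.46 to 0.50. COLEC12, a scavenger receptor (peak p-value of 1.02e-07), moved in both directions: it rose in clones 1.1, 3.5 and 3.6 by 0.93 to 1.02 and fell in clone 2.2 by 1.87 ± 0.14 on the log2 scale. Of these 8 members CHRNA1 and SERPINI1 were called up in all 5 clones, PMEL and COLEC12 were called in some, and RAB5B, AP5S1, PDCD10 and ICAM5 in none.

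The study named 27 target genes from these same samples, so their direction is not independent evidence here. Of the 26 that are protein-coding, 8 (30.8%, against 31.8% of all promoters) had a promoter peak in MDST8 alone, namely CDC20, CENPM, DBF4B, PDCD4, PIK3IP1, PPM1N, SLAIN1 and SYNE1, 13 had peaks in both lines, 3 in LoVo alone and 2 in neither. PDCD4, a translation inhibitor, was at 15.9, 15.7 and 13.8 CPM in WT and at clone means of 26.1 to 32.6 CPM, up in all 5 clones. PIK3IP1, an inhibitor of phosphoinositide 3-kinase, rose from 6.56 ± 0.796 CPM to 16.8 to 28.5 CPM, and SLAIN1, a microtubule-binding protein, from 16.3 ± 1.68 to 26.0 to 49.6 CPM, both in all 5 clones. In the libraries labelled TWIST1 shRNA these 3 genes were lower than in the labelled control, PDCD4 by 0.67, PIK3IP1 by 2.12 and SLAIN1 by 2.77 on the log2 scale.

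CENPM, a kinetochore protein, was at 51.1, 50.7 and 50.5 CPM in WT and fell to clone means of 24.9 to 32.1 CPM. DBF4B, a regulator of the replication kinase CDC7, fell from 46.5 ± 0.398 CPM to 26.2 to 28.4 CPM, nearly the same in all 5 clones. SYNE1, a nuclear envelope protein, and CDC20, an activator of the anaphase-promoting complex, were called down in 4 clones each and missed the threshold at -0.57 (clone 2.2) and -0.56 (clone 3.5). In LoVo as labelled CENPM, SYNE1 and CDC20 were higher in the TWIST1 shRNA libraries, by 1.13, 1.80 and 1.35. PPM1N, a phosphatase, was called up in all clones except 3.6, where its log2 fold change was 0.46 (adjusted p = 0.0864 by edgeR). In LoVo as labelled PPM1N was at -0.86 (adjusted p = 0.00997 by edgeR) and DBF4B at 0.57, which was not called. The sign in LoVo as labelled was thus opposite to that in the clones for all 8 of these genes. The study reports PDCD4, PIK3IP1, SLAIN1 and PPM1N as raised, and CDC20, CENPM, DBF4B and SYNE1 as lowered, in knockout and knockdown cells alike. The LoVo signs as labelled were therefore also opposite to those the study reports.

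Genes of DNA replication and mitosis were members in 17 of 35 (48.6%, against 31.8% of all promoters). The list holds CDC20, CENPM and ASF1B, which the study named as downregulated from these same samples. CDC20 and CENPM are among the 17, so their direction is not independent evidence. All 17 passed the filter, 0 were called up in any clone, and 8, 6, 3, 11 and 8 were called down in clones 1.1, 2.2, 3.2, 3.5 and 3.6, with list medians of -0.53, -0.57, -0.42, -0.60 and -0.58 on the log2 scale. Over all genes tested 7.49, 6.64, 6.09, 7.25 and 11.7% were called down and the medians were between -0.014 and 0.003. CCNA2, the cyclin of S phase and G2, fell by 0.69, 1.31, 1.52 and 0.93 on the log2 scale in clones 1.1, 2.2, 3.5 and 3.6 and was at -0.42 in clone 3.2. RRM2, a subunit of ribonucleotide reductase, was at 434, 422 and 431 CPM in WT and at clone means of 213 to 304 CPM. MCM6, a subunit of the replicative helicase with the strongest peak of the list (chr2:135876237-135876711, peak p-value of 8.89e-07), was at 147, 148 and 148 CPM in WT and at clone means of 76.4 to 116 CPM. CENPM was the only member of the list called down in all 5 clones. In LoVo as labelled 5 of the 17 were called higher, among them RRM2 (1.49 ± 0.06 SE), and 0 lower. Over all genes tested there, 26.6% were called higher and 26.1% lower.

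Transcripts of ribosomal proteins were called mainly in clone 3.6. Of 84 ribosomal protein genes 29 were members (34.5%), and of these 2, 0, 2, 2 and 16 were called down in the clones and 0 up, with list medians of -0.32, -0.15, -0.31, -0.18 and -0.59. Over all genes tested 7.49, 6.64, 6.09, 7.25 and 11.7% were called down in the same clone order. In clone 3.6, in which 16 were down, RPS20 was at -0.56 ± 0.03 and missed the threshold. Proteasome subunits were members in 18 of 39 (46.2%), and of the 16 tested 2 were called, both down in clone 3.6. Members among subunits of the respiratory chain (29 of 78), mitochondrial ribosomal proteins (31 of 78) and phosphoinositide 3-kinase and AKT genes (8 of 24) had at most 4 calls in a clone, of 26, 30 and 8 tested, where 14.7 to 27.0% of all genes tested were called. Genes of the ribosome have many processed copies, between which reads may be split.

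Histone genes were members in 29 of 95, of which 6 were tested. H2AZ1, a variant histone, was at 459, 441 and 450 CPM in WT and at clone means of 214 to 274 CPM, and was called down in all 5 clones. Of 508 zinc finger genes of the ZNF series, 187 were members (36.8%), and of 157 tested 10, 4, 10, 9 and 9 were called up and 9, 5, 6, 6 and 30 down, where 12, 8.05, 10.9, 11.2 and 15.3% of all genes tested were called up and 7.49, 6.64, 6.09, 7.25 and 11.7% down. Olfactory receptor genes were members in 62 of 400 (15.5%), of which 2 passed the filter. OR51E2, with a peak p-value of 9.98e-06, was at 0.265, 0.404 and 0.303 CPM in WT and rose in clones 1.1, 3.2, 3.5 and 3.6 by 2.49 to 3.45. It passed the filter only through clone libraries, so a higher level in some clones was a condition of its being tested. Protocadherin cluster genes were members in 13 of 53 and keratin genes in 15 of 55, of which 7 and 2 were tested in the clones.

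Genes that define the mesenchymal state were members in 9 of 31. VIM, the intermediate filament vimentin, was at 3470 ± 96.1 CPM in WT (n = 3) and at log2 fold changes of -0.06 to 0.34 in the clones. VCAN, the matrix proteoglycan versican, rose from 275, 295 and 294 CPM in WT to clone means of 631 to 767 CPM, and COL6A1, a collagen chain, rose by 0.68 to 1.09 on the log2 scale, both in all 5 clones. CCN1, a matrix-associated signalling protein, was called down in clones 1.1, 3.2, 3.5 and 3.6 (by 1.31, 1.87, 0.64 and 2.28 on the log2 scale) and was at 0.01 in clone 2.2. The members of this list therefore moved in both directions. Of transcription factors of the mesenchymal transition, TWIST1, SNAI1, SNAI2 and TCF4 were members, 4 of 14, and of these SNAI2 was called down in clone 3.6 (-0.69 ± 0.04) alone, while TCF4 was called in no clone.

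Of the partners and inhibitors of TWIST1, TCF3, TCF4 and ID3 were members, 3 of 10. ID3, which blocks DNA binding by E proteins, was at 30.4, 26.5 and 28.6 CPM in WT and at 3.26, 3.86 and 3.2 CPM in clone 3.6, a log2 fold change of -3.05 ± 0.11 (adjusted p = 2.95e-23 by edgeR). In the other 4 clones ID3 was at -0.18 to 0.53 and was not called. TCF3 was called in no clone, with log2 fold changes of -0.26 to 0.05.

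Comparing MDST8 WT with LoVo asks whether a peak present in 1 line goes with a difference in expression. Line, transduction and experiment cannot be told apart in this comparison, and MDST8 WT was compared with each LoVo group in turn. Of 4752 members tested, 1592 were higher and 1428 lower in MDST8 WT than in LoVo labelled shRNA control, together 63.6% against 66.5% of all genes (33.4% higher, 33.1% lower). Against LoVo labelled TWIST1 shRNA, 1465 were higher and 1342 lower, together 59.1% against 63.0% of all genes (30.4% higher, 32.5% lower). Higher against both groups were 1067 members (22.5%, against 22.6% of all genes), and lower against both were 968 (20.4%, against 23.7%). The members' median log2 difference was 0.075 and 0.053, beside 0.009 and -0.014 for all genes. Of all protein-coding genes tested 21.7% were higher and 23.3% lower against both groups, and of promoters with peaks of both lines 22.4% and 21.4%. The members' shares were near these backgrounds, and no test of the shares was made.

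Members called against both LoVo groups were ranked by the smaller of their 2 log2 differences. Leading among those higher in MDST8 were VAT1L, SFRP1, CDH6, TMEM47, HDGFL3 and NETO1, all with 0 counts in the LoVo libraries labelled shRNA control. SFRP1, a secreted antagonist of Wnt ligands, was at 1880, 1910 and 1760 CPM in MDST8 WT, at least 10000-fold higher than in LoVo labelled shRNA control with a floor of 3 counts per library. VAT1L, a relative of an oxidoreductase of synaptic vesicles, was at 337, 318 and 294 CPM and at least 1720-fold higher. CDH6, a cadherin of mesenchymal and renal cells, was at 120, 120 and 122 CPM and at least 655-fold higher. TMEM47, HDGFL3 and NETO1 were at least 618, 553 and 447-fold higher. All 6 genes lay far above the LoVo libraries without overlap, which their ranking by this difference favours in advance. Their promoter peaks were weak, with p-values of 0.00122 for VAT1L to 0.0400 for TMEM47. Within MDST8, TMEM47, HDGFL3, NETO1 were called in no clone, VAT1L and SFRP1 were called up in clone 3.6 (0.74 and 0.61), and CDH6 in clone 3.2 (0.93).

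By the same ranking, the leading members lower in MDST8 were TINAGL1, CLDN7, ANO9, EPCAM, COBL and TNS4, and 5 of them had 0 counts in the 3 WT libraries. EPCAM, an adhesion molecule of epithelia, held 2 counts over the WT libraries and 572, 623 and 574 CPM in LoVo labelled shRNA control, a ratio of 17300 (95% counting interval 4780 to 142000). CLDN7, a claudin of tight junctions, was at 188, 188 and 195 CPM in LoVo labelled shRNA control, at least 1200-fold above WT. TINAGL1, a matrix glycoprotein, was at 312, 304 and 328 CPM there, at least 1980-fold above WT. All had an MDST8 promoter peak and no LoVo peak within 1000 bp: that of EPCAM at chr2:47345022-47345687 had a p-value of 0.000286, and that of CLDN7 reached into the promoter although its summit lay 2020 bp upstream of the 5′ end. None of the 6 reached the filter in the clones, where the highest library of any was EPCAM at 0.252 CPM. Intervals and floors cover counting error only.

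**Figure D5:**
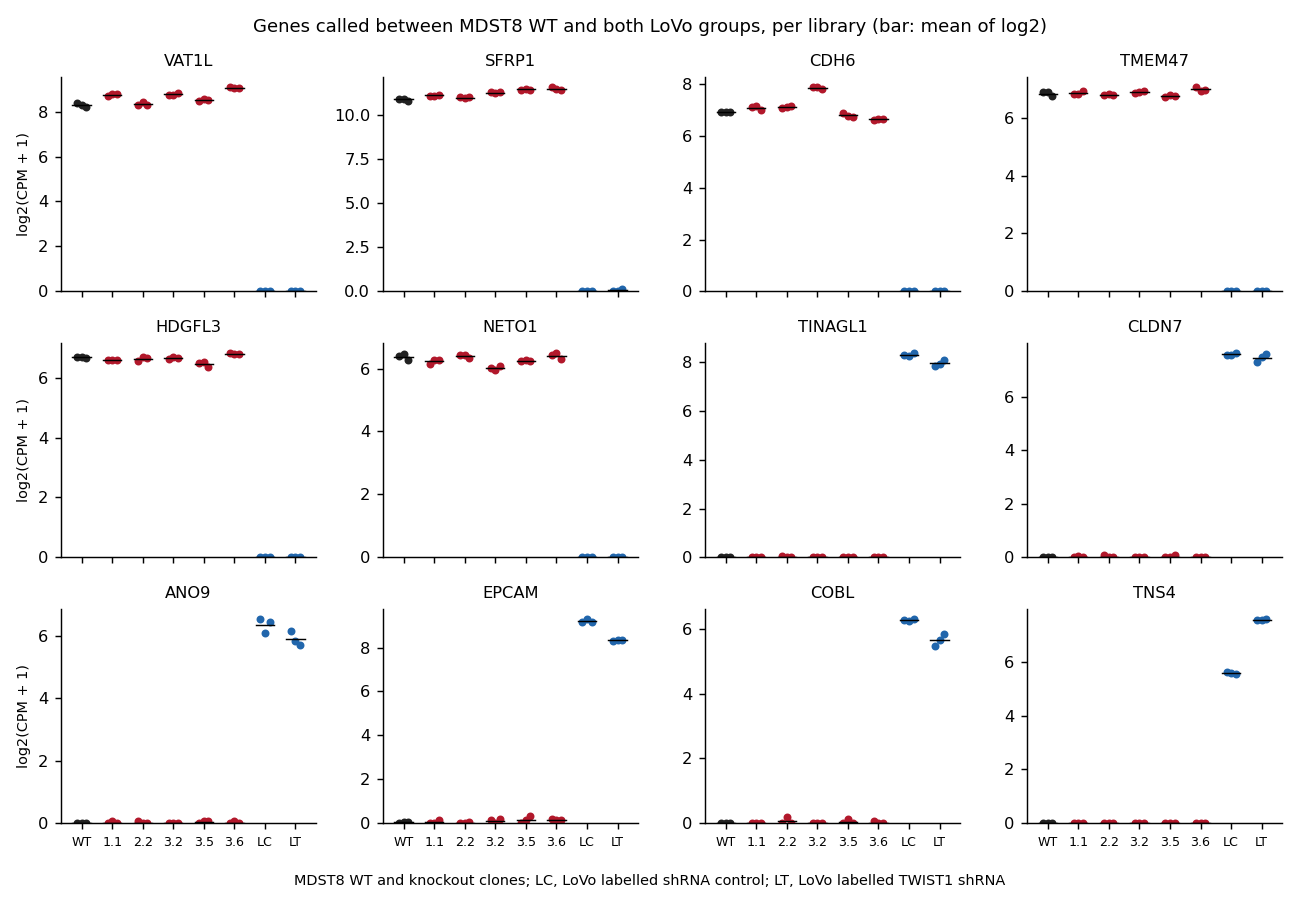
Level in each library as log2(CPM + 1) (y axis, 1 point per library, bar at the mean of the log2 values) for 12 members called between MDST8 WT and both LoVo groups, coloured as in the plot of the clones. VAT1L to NETO1 are high in all MDST8 libraries and at or near 0 in LoVo, and TINAGL1 to TNS4 are the reverse.

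Intestinal identity genes and epithelial regulators with an MDST8-only peak were mostly lower in MDST8 than in LoVo, as were epithelial markers of the other promoter classes. Of 22 genes of intestinal identity 9 (40.9%) were members, and 9 of 9 were lower in MDST8 WT than in LoVo labelled shRNA control. CDH17, an intestinal cadherin, was at 688, 720 and 656 CPM in LoVo labelled shRNA control, at 18, 23.9 and 21.3 CPM in LoVo labelled TWIST1 shRNA, and at 0.0529, 0.00 and 0.151 CPM in MDST8 WT. Against LoVo labelled TWIST1 shRNA, 7 were lower and 1 was higher. Over all genes tested, 33.1% were lower in MDST8 WT against the labelled control, 32.5% against the labelled TWIST1 shRNA group and 23.7% against both. CDH1, with a promoter peak in neither line, was at 0 CPM in WT and 274 CPM in LoVo labelled shRNA control. CDX2, with a LoVo peak alone, was at 0 and 263 CPM, and KRT19, with peaks of both lines, at 0.323 and 651 CPM. The difference was thus not particular to the members.

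Of 11 epithelial regulators that oppose the mesenchymal transition, EHF, ESRP2, GRHL2 and GRHL3 were members, and 4 of 4 were lower in MDST8 WT than in both LoVo groups. EHF, an ETS factor of epithelia, was at 450, 491 and 451 CPM in LoVo labelled shRNA control and at 0.159, 0.00 and 0.0504 CPM in WT. Of these 4 genes and the 9 of intestinal identity 2 passed the filter in MDST8, of which GATA6 was called down in clone 2.2 (-0.83). Of 7 junction genes among the members, 6 were lower in MDST8 WT against both LoVo groups, and CTNND1, p120 catenin, was at 10.6 ± 1.21 CPM in WT and 12.7 ± 1.89 CPM in LoVo labelled shRNA control. PARD6B, a polarity protein, was called up in clones 1.1, 3.2 and 3.6 (0.74, 0.93 and 1.6). SNAI2 went the other way, at 143, 141 and 139 CPM in MDST8 WT and 0.0614, 0.00 and 0.00 CPM in LoVo labelled shRNA control.

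Within LoVo, 2170 of 4447 members tested were called between the libraries labelled TWIST1 shRNA and shRNA control, 1070 higher and 1100 lower, 48.8% against 52.7% of all genes (26.6% higher, 26.1% lower). Promoters with peaks of LoVo alone were called in 51.2% and those with neither in 54.4%. Among members with a mean of at least 1 CPM in both LoVo groups, the largest increases in the TWIST1 shRNA libraries were those of COL9A3, PTPRS, FOSB and IGFBP2, by 6.38, 6.05, 5.57 and 5.39 on the log2 scale. PTPRS, a receptor tyrosine phosphatase, was at 3.13, 3.26 and 3.38 CPM in the labelled control, at 195, 204 and 236 CPM in the labelled TWIST1 shRNA libraries, and at 143, 148 and 137 CPM in MDST8 WT. FOSB, an immediate early factor of the AP-1 family, was at 2.52, 3.92 and 1.95 CPM and at 151, 131 and 115 CPM, in the same order. Neither overlapped between the LoVo groups, which their choice by large changes favours in advance. Genes under the limit could differ more, as did VCAN, with a mean of 0.0191 CPM in the labelled control and 234 CPM in the TWIST1 shRNA libraries.

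Under the same limit of 1 CPM, the largest decreases were those of ALPP, PI3, TM4SF1 and AKR1C2, at -6.49, -6.22, -6.05 and -5.71 on the log2 scale. PI3, the elastase inhibitor elafin, was at 129, 142 and 143 CPM in the labelled control and 1.56, 2.16 and 1.73 CPM in the TWIST1 shRNA libraries. TM4SF1, a tetraspanin-like surface protein, went from 223, 234 and 222 CPM to 2.66, 3.62 and 3.79 CPM, and was at 237, 214 and 212 CPM in MDST8 WT. TCF4, outside the limit, went from a mean of 6.48 to 0.0195 CPM. ALPP and AKR1C2 have near-identical paralogs and their values are uncertain. All 9 intestinal identity members were also lower as labelled, CDH17 by 5.00 ± 0.09 on the log2 scale.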

How the data were processed

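RNA-seq counts per gene and TWIST1 peak lists were used as the authors deposited them. The authors aligned RNA-seq reads with HISAT2 2.1.0 and counted them per GENCODE gene with featureCounts 2.0.0, without regard to strand, so the deposited counts of a gene and of an antisense or divergent neighbour cannot be told apart. Exon length per gene stood beside the counts in the deposited tables. ChIP-seq reads were aligned with Bowtie2 2.4.5, and MACS2 2.2.7.1 called peaks at p below 0.05. Per the submitters' processing notes the build was hg38. The deposited peak lists gave fold enrichment over the local background (a ratio), −log10 p and −log10 q, and a score. Whether input DNA served as control is not given in the sources used here.

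The 5′ end of each of 19968 protein-coding genes was the outermost start in the count tables, of whose 62703 gene identifiers 62686 matched GENCODE, and any overlap with the 1000 bp to either side counted. The members, gene lists and tests were chosen with earlier results of these data known. Levels are counts scaled to library size (CPM) with TMM factors over the 24 libraries, divided by exon length in kb where genes are compared. Genes with a geometric mean RPM of at least 1 (computed with an offset of 1) were tested with edgeR 4.0.16 (quasi-likelihood, TMM, R 4.3.3), with Benjamini-Hochberg adjustment over all genes tested. The difference between LoVo as labelled and the mean of the 5 clones was a contrast in one fit. A fold against a group at 0 was computed against 3 counts per library, and one against 1 to 3 counts has a 95% exact Poisson interval. Simulated 2-fold changes were called in 91.9% of 99 genes for clone 1.1 (13706 genes), 94% of 100 for LoVo (14270) and 90.3% of 103 for the line comparison (15844).

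Named genes were the 10 members with the smallest peak p, the 8 per direction with the largest smallest change over the 5 clones, the 6 per direction with the largest smaller difference of WT from both LoVo groups, the 4 per direction with the largest change in LoVo at a mean of at least 1 CPM in both groups, members of the lists of study targets, mesenchymal factors, partners and epithelial antagonists, the 3 members with the smallest peak p of each other list, and the 3 nearest either edge of the rule. CCNA2, VIM, COL6A1, GATA6 and SPP1 were named after their values were seen. Some genes that the rule names are not reported here. DESeq2 1.42.0, limma 3.58.1, other filters, peak thresholds, windows, a replicate block and leaving out each library were tried as alternatives.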

Additional observations from a re-analysis of the deposited data

Results flagged for a closer look

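The effect in LoVo as labelled and the mean effect over the 5 MDST8 clones were compared in edgeR for 16 members. These were the leading members called up or down in all 5 clones, ranked by their smallest change over the same clones. Of the 16, 11 differed at an adjusted p below 0.05. Choosing genes by large clone effects favours a difference from LoVo in advance. Within LoVo as labelled, 52.7% of all genes tested were called, and the share of all genes with such a difference is not given. The count of 11 is therefore a description and does not set these members apart from other genes. The LoVo direction rests on labels that the TWIST1 counts ran against, and line and method of TWIST1 loss cannot be told apart. For DACH1, the log2 fold change was -2.86 in LoVo and 2.2 over the clones, a difference of -5.10 ± 0.18 (SE, adjusted p = 6.72e-24). BMF, which promotes apoptosis, had a difference of -3.62 ± 0.16 (adjusted p = 2.02e-20), from -1.59 in LoVo and 2.00 over the clones. PLEKHG1 was at -0.18 in LoVo and 1.91 over the clones, a difference of -2.12 ± 0.11 (adjusted p = 9.33e-19). SERPINI1 rose in both, by 3.99 and 2.68, with a difference of 1.28 ± 0.49 (adjusted p = 0.0207).

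Among members that fell in the clones, KRTAP2-3 was at 2.88 in LoVo and -3.28 over the clones, a difference of 6.13 ± 0.22 (adjusted p = 1.35e-23). TNFAIP2 was at 0.20 and -3.19, a difference of 3.35 ± 0.15 (adjusted p = 9.69e-21). BMP2 fell in both, with -4.41 in LoVo and -1.52 over the clones, a difference of -2.92 ± 0.14 (adjusted p = 1.11e-19). KRT34 and CENPV also fell in both, with differences of -1.67 ± 0.40 (adjusted p = 0.000372) and 0.39 ± 0.11 (adjusted p = 0.00222). The remaining differences, -3.72 ± 0.60 for CACNA2D1 (adjusted p = 1.38e-06) and 5.55 ± 2.34 for SERPINB2 (adjusted p = 0.0353), rest on LoVo libraries with at most 9 and 2 counts, and neither gene passed the filter within LoVo.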

How the results depend on the processing

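The number of members depended on the peak threshold: 1820 promoters qualified once MDST8 peaks above a p-value of 0.001 were dropped, 2427 once such peaks were dropped from both lists, 53 once peaks above a q-value of 0.05 were dropped from both, and 3921 where no LoVo peak lay within 3000 bp. Of the 2427, 53 and 3921, 1820, 37 and 3921 were among the 6341. Up in all 5 clones were then 28, 37, 2 and 57 members, and down were 10, 19, 0 and 21. The other 153 values that answer a comparison stayed within 1.5 times under another tool, normalization, filter or promoter definition. Without 1 library at a time the count up in all 5 clones was 98 to 115 and down 30 to 38, and clone counts were 719 to 748, 510 to 561, 623 to 636, 663 to 691 and 1059 to 1109. Of single genes, limma on log2(count + 1) called CCND1 in 1 clone, against 0 with edgeR. It called MRPL57 and SNAI2 in 0, against 1 each with edgeR. PCDHB3 was called in 3 and ZNF747 in 1, and limma-voom also called ZNF747 in 1, numbers that differed from those with edgeR. The cause was not tested. The letters A to C did not pair the samples (r from -0.0999 to 0.108 over 15 pairs). With a replicate block 739, 541, 627, 680 and 1071 members were called in the clones, 104 up and 36 down in all 5.

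One ChIP-seq library per line and median peak p-values of 0.00286 limit the member list, and a promoter without a LoVo peak is one where none was listed. At 16567606 to 22217009 counts per library, members under the filter could not be tested.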
